A study of Mus musculus with 18 samples.

Results

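The 10 genes described here are markers of tissues other than the choroid plexus. Tph1, Aanat and Crx stand for the pineal gland, Gh and Prl for the pituitary, Gabra6 and Pvalb for the cerebellum, and Acta1, Ckm and Tnnt3 for skeletal muscle. They were taken by symbol from a table of 50584 genes, in which all 10 were found. Of these, 7 passed the filter on low counts and were among the 16598 genes tested, whereas Acta1, Ckm and Tnnt3 did not pass. RNA sequencing was available for whole choroid plexus, the secretory tissue of the brain ventricles, from 6 MRL/lpr samples at 12 weeks, 6 MRL/lpr samples at 16 weeks, 3 MRL/+ samples at 12 weeks and 3 MRL/+ samples at 16 weeks. All 18 samples share the MRL background, and in the MRL/lpr strain the death receptor gene Fas is in its lpr form, a model of lupus. The labels give no treatment and do not say whether each sample came from a separate animal, so the p-values below measure only the spread between these samples.

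The pineal gland turns tryptophan into serotonin and melatonin and shares much of its gene expression with retinal photoreceptors. The anterior pituitary makes peptide hormones in dedicated cell types. Cerebellar granule and Purkinje cells carry receptor subunits and calcium-binding proteins, of which Pvalb is also found in interneurons. Fast skeletal muscle is built from its own actin, myosin and troponin forms. In whole-tissue samples, fewer cells of a type and less RNA per cell cannot be told apart.

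Libraries held 11164284 to 14602253 counts, and 1 count was worth 0.0636 to 0.0975 CPM, the usual count unit scaled to a common library total, here with trimmed mean of M-values (TMM) factors. A count of 0 allows up to 3 counts, which is 0.191 to 0.292 CPM depending on the library and covers counting error only. The 12 choroid plexus epithelium genes examined summed to 8108 to 18870 CPM, and each had a median above 10 CPM, so the labelled tissue carried its markers in every library. Fas did not separate the strains by its whole-gene level, with 1.15 to 5.09 CPM in the 12 MRL/lpr libraries and 1.10 to 2.46 CPM in the 6 MRL/+ libraries, so that value checks no strain label. No library pair within a group agreed within sampling noise.

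Pineal genes were high in 2 libraries, both from MRL/lpr mice of 12 weeks. Tph1 encodes the tryptophan hydroxylase of pineal and other non-neuronal cells and lies at chr7:46644641-46672537 on the minus strand of GRCm38. Its level was 30.1 CPM in MRL/lpr replicate 1 of 12 weeks, 27.5 CPM in replicate 4 and 0.290 to 0.410 CPM in the other 4 libraries of that group. In MRL/lpr at 16 weeks, the lowest value was 0.129, the median 0.382 and the highest 6.71 CPM, the last in replicate 5. MRL/+ libraries held 0, 0 and 0.392 CPM at 12 weeks and 0.175, 0.487 and 0.558 CPM at 16 weeks. Thus 2 of 18 libraries held 82.8% of the summed Tph1 level, 1 further MRL/lpr library stood above the rest, and the groups overlapped.

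Crx, a homeodomain factor of pinealocytes and photoreceptors at chr7:15865947-15879968 on the minus strand, was high in the same libraries. Among MRL/lpr libraries, replicates 1 and 4 of the 12-week group reached 9.17 and 8.61 CPM and replicate 5 of the 16-week group 2.27 CPM, and it had no count in 8 libraries. All other libraries were at or below 0.558 CPM. Counts of Tph1 and Crx stood at ratios of 3.28, 3.19 and 2.96 in the 3 libraries with at least 20 counts of both. Across the 18 libraries their log2 CPM gave a Pearson r of 0.96, a description in which all points share library and depth.

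Crx protein is known to bind the letters TAATCC, so the RefSeq promoters of GRCm38.p6 were searched for it on both strands. Of the 10 genes, 7 had a promoter entry, with 9 windows in all; Aanat, Gh and Tnnt3 were not matched. The 250 bases before the start of Crx itself (chr7:15879956-15880205, minus strand) held 2 matches, beginning 94 and 21 bases before the start, and are shown because Crx and Tph1 were high together. Capitals mark the matches, which read GGATTA where the motif lies on the opposite strand.
Crx: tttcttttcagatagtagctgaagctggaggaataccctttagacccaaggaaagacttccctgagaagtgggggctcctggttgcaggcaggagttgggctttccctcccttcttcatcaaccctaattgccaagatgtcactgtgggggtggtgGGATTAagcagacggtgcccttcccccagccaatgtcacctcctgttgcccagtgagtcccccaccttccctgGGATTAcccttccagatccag
Of 32851 promoter windows of this length, 6.25% held TAATCC, and neither Tph1 window held it. A match is a description of the letters only.

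Aanat, the enzyme that acetylates serotonin in the melatonin pathway (chr11:116586432-116597680, plus strand), was far less uneven. It was detected in all 18 libraries, at 0.363, 0.885 and 1.83 CPM as lowest, median and highest value in MRL/lpr at 12 weeks and at 0.410, 0.554 and 1.01 CPM at 16 weeks. MRL/+ held 0.445, 0.862 and 0.471 CPM at 12 weeks and 0.351, 0.292 and 0.479 CPM at 16 weeks. The highest 2 values were again those of MRL/lpr replicates 1 and 4 of 12 weeks, at 1.83 and 1.45 CPM, but these rested on 22 counts each. Per length, the order in replicate 1 was Tph1 at 4.88, Crx at 2.90 and Aanat at 1.10 RPKM (counts scaled to depth and to gene length in kilobases).

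The other 16 genes of the pineal list gave the same 2 libraries. Their summed level was 182 CPM in replicate 1 and 149.8 CPM in replicate 4 of MRL/lpr at 12 weeks, against a median of 49.2 CPM over all 18, and no other library exceeded 69.7 CPM. Rbp3, a retinoid-binding protein of the photoreceptor matrix, stood at 25.5 CPM at its highest and 0.370 CPM at its median. Gnb3, a G protein subunit of photoreceptors, stood at 48.6 and 2.59 CPM, whereas Rom1, a photoreceptor disc protein, stood at 53.2 CPM at its highest and already at 32.4 CPM at its median. With at least 10 counts as the minimum, 8 of the 16 genes in replicate 1 and 9 in replicate 4 were over 3 times their own median. In MRL/lpr replicate 5 of 16 weeks, where Tph1 and Crx also stood out, 2 of 16 did, Rbp3 and Chrna3, a nicotinic receptor subunit. Replicate 4 of 12 weeks was also high for habenula and thalamus genes, at 6.53 times the median over those with a median of at most 10 CPM, and their part was not tested.

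**Figure D1:**
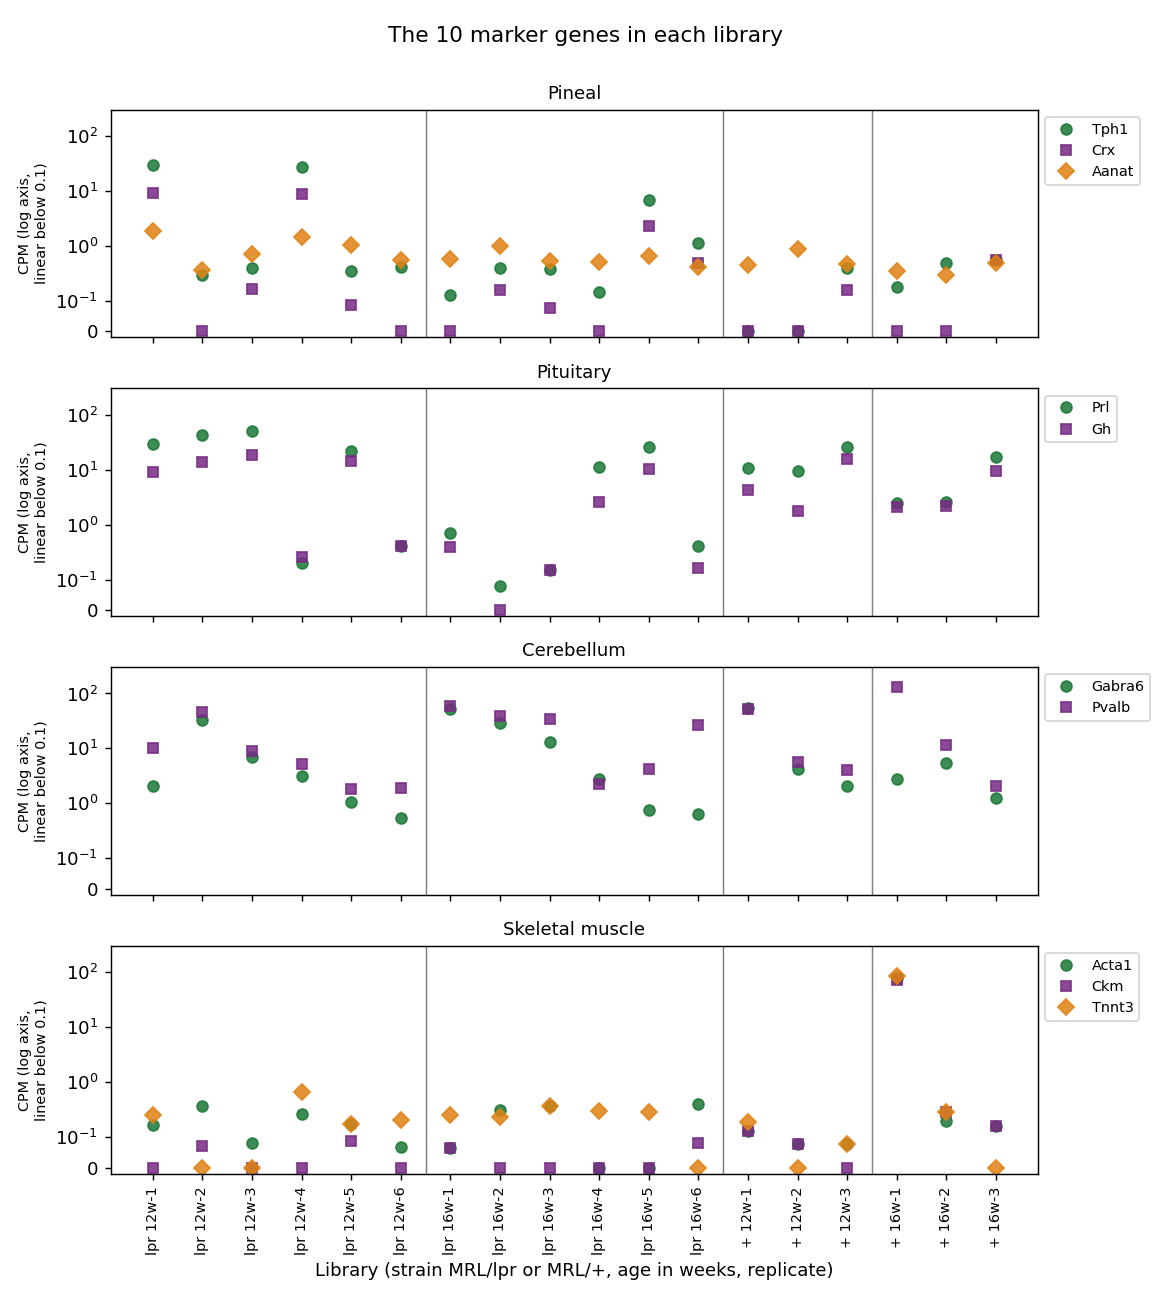
CPM of the 10 genes (vertical, log axis that is linear below 0.1) in each of the 18 libraries (horizontal, grouped by strain and age), 1 panel per tissue and 1 marker shape per gene. Tph1 and Crx are high in replicates 1 and 4 of the 12-week MRL/lpr group, and Acta1, Ckm and Tnnt3 are high in MRL/+ replicate 1 of 16 weeks.

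Prolactin and growth hormone RNA was found in both strains and both ages, and of the 2 libraries high in pineal genes it was high in MRL/lpr replicate 1 of 12 weeks and low in replicate 4. Prl (chr13:27057570-27065204, plus strand), the hormone of lactotrophs, ranged from 0.197 to 49.8 CPM with a median of 25.7 in MRL/lpr at 12 weeks and from 0.0775 to 25.3 CPM with a median of 0.560 at 16 weeks. MRL/+ libraries held 10.7, 9.40 and 25.5 CPM at 12 weeks and 2.46, 2.63 and 17.1 CPM at 16 weeks. Low values occurred in 2 of 6 MRL/lpr libraries of 12 weeks and 4 of 6 of 16 weeks, and none of the 6 MRL/+ libraries fell as low.

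Gh (chr11:106300271-106301865, minus strand), the hormone of somatotrophs, followed Prl. It ranged from 0.263 to 18.5 CPM with a median of 11.3 in MRL/lpr at 12 weeks and from 0 to 10.1 CPM with a median of 0.276 at 16 weeks. MRL/+ held 4.195, 1.80 and 15.8 CPM at 12 weeks and 2.10, 2.14 and 9.41 CPM at 16 weeks. Their log2 CPM had r = 0.97 over the 18 libraries, and their counts stood at 1.17 to 5.22 Prl per Gh in the 12 libraries with at least 20 counts of both. Per length, Prl at 55.7 exceeded Gh at 21.4 RPKM in MRL/lpr replicate 3 of 12 weeks, the highest library for both.

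The other pituitary genes were mostly at or near 0. Pomc, the precursor of corticotropin, was the single one of 14 to exceed 3 times its median with at least 10 counts in replicates 2 and 3 of the 12-week MRL/lpr group, and reached 145 counts and 10.5 CPM in replicate 2. Cga, the subunit shared by the glycoprotein hormones, never exceeded 3 counts, and Tshb, the beta subunit of thyrotropin, never exceeded 4. Pou1f1, the factor that drives Prl and Gh in the pituitary, never exceeded 1 count, while Fshb and Tbx19 had none in any library. Lhb was even, at 14.0 to 21.7 CPM, and shares 139 of its 678 exon bases with Ruvbl2 on the opposite strand, whose reads cannot be told apart in a library kit that does not mark strand. Gata2, a transcription factor also used outside the pituitary, stood between 0.348 and 5.78 CPM. The summed level of these 14 genes had a median of 23.6 CPM and a maximum of 32.2 CPM, and no library stood over 3 times the median of this sum, of which Lhb made up most. Without Lhb, a sum chosen after the data were seen, MRL/lpr replicate 2 of 12 weeks stood at 13.6 CPM, 3.12 times the median of 4.35, and Pomc was 10.5 CPM of it. Gh and Prl RNA was thus measured with most of the genes that define the gland at or near 0.

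Pou1f1 protein is known to bind TATNCAT, and the 250 bases before Prl (chr13:27057320-27057569, plus strand) held 2 matches, beginning 148 and 47 bases before the start. They are shown for the hormone with the highest level of the pair, with matches on either strand in capitals.
Prl: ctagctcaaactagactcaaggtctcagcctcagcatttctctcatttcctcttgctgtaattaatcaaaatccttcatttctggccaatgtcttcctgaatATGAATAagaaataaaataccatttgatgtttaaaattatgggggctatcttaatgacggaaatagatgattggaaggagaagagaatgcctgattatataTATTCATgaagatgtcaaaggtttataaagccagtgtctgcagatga
The same letters occurred in 7.92% of the 32851 windows.

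**Figure D2:**
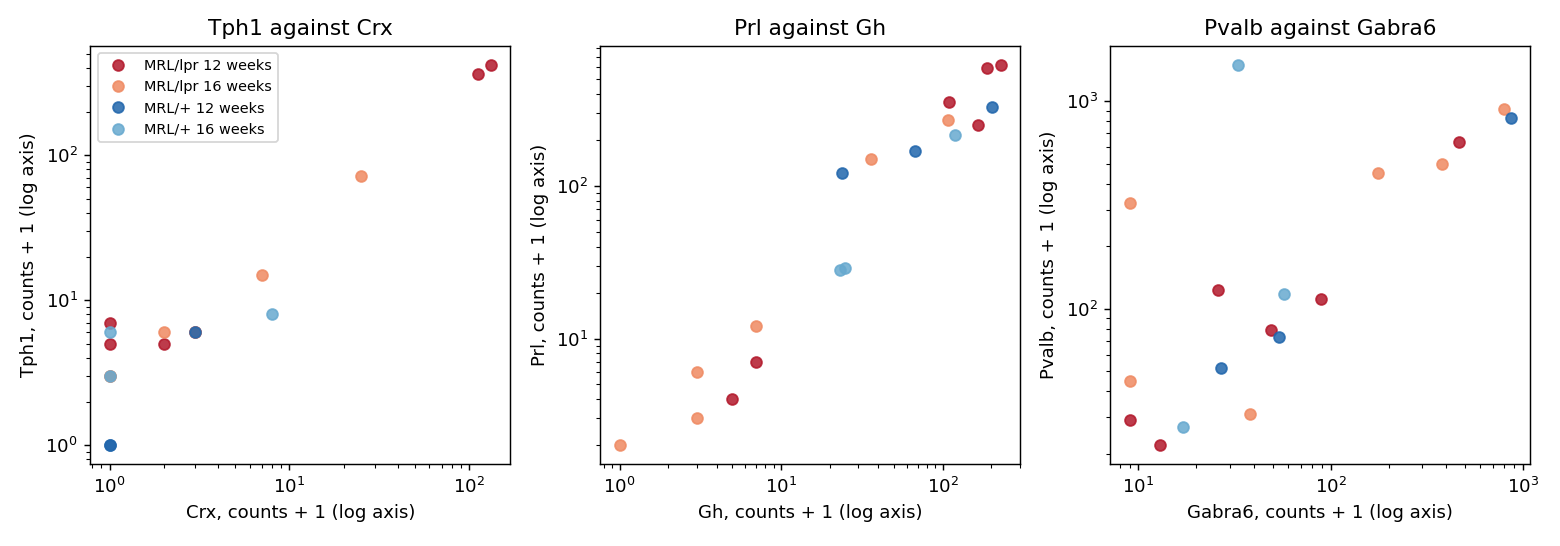
Counts plus 1 of 1 gene against another of the same tissue label in each library, on log axes, coloured by group. Prl and Gh rise along 1 line, Tph1 and Crx are separated by 3 libraries, and for Pvalb and Gabra6 MRL/+ replicate 1 of 16 weeks lies far above the others at a ratio of 46.7.

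Cerebellar genes were high in more libraries. Gabra6 (chr11:42306437-42321072, minus strand), a GABA receptor subunit of cerebellar granule cells, ranged from 0.547 to 33.6 CPM with a median of 2.62 in MRL/lpr at 12 weeks and from 0.656 to 51.2 CPM with a median of 7.96 at 16 weeks. In MRL/+ it stood at 55.0, 4.15 and 2.04 CPM at 12 weeks and at 2.81, 5.46 and 1.28 CPM at 16 weeks. High values thus occurred in both strains, in replicate 1 of MRL/+ at 12 weeks, replicate 2 of MRL/lpr at 12 weeks and replicates 1, 2 and 3 of MRL/lpr at 16 weeks, the last at 13.2 CPM.

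The 14 other cerebellar genes were led by MRL/+ replicate 1 of 12 weeks. Their sum was 1617 CPM there, against a median of 522, and the next highest library held 764 CPM. The sum rested largely on Itpr1, a calcium channel of Purkinje cells that many tissues express, with a median of 405 CPM and a maximum of 1032. With the 3 genes whose median lay above 10 CPM left out, a sum chosen after the data were seen, MRL/+ replicate 1 of 12 weeks stood at 14.1 times the median. The other 4 libraries named this way, all MRL/lpr, stood at 3.15 to 4.89 times it. In the leading library, 13 of 14 genes were over 3 times their median, among them Cbln3, a granule cell protein, at 95.7 CPM against a median of 4.31, and Car8, a Purkinje cell protein, at 87.7 against 10.7. The same library was also high for other brain lists when their genes with a median above 10 CPM were left out, at 4.94 times the median for hypothalamus, 4.86 times for hippocampus and cortex and 3.27 times for neurons. By the same sums, MRL/lpr replicate 3 of 16 weeks stood at 6.97 times for hypothalamus and 5.32 times for neurons. It stood at 4.16 times for habenula and thalamus and at 1.52 times for hippocampus and cortex. Its sum over all astrocyte list genes was 3.67 times the median. The part of these lists in results that rest on either library was not tested.

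Pvalb (chr15:78191114-78206400, minus strand), a calcium buffer of Purkinje cells and interneurons and of fast muscle fibres, is known from both tissues. It ranged from 1.83 to 46.0 CPM with a median of 6.996 in MRL/lpr at 12 weeks and from 2.21 to 58.9 CPM with a median of 30.2 at 16 weeks. MRL/+ libraries held 52.9, 5.64 and 4 CPM at 12 weeks and 131, 11.4 and 2.07 CPM at 16 weeks. In 12 of the 13 libraries with at least 20 counts of both genes, 0.811 to 4.88 Pvalb counts stood beside 1 of Gabra6, and in MRL/+ replicate 1 of 16 weeks 46.7 did. MRL/lpr replicate 6 of 16 weeks was a further exception, with 323 Pvalb and 8 Gabra6 counts. That library also held Camk2a, a kinase of forebrain neurons, at 266 CPM, and its sum of 8 hippocampus and cortex genes was 10.7 times the median. Slc17a7, a glutamate transporter of neurons, stood at 40.3 CPM there. Its highest level, 51.5 CPM, was in MRL/+ replicate 1 of 12 weeks, the library highest for Gabra6.

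The Pvalb promoter entries were searched for a MEF2 site. The window before its first listed start (chr15:78206401-78206650, minus strand) held 1 match to a MEF2 site, the binding site of the MEF2 factors of muscle and neurons, beginning 180 bases before the start and marked in capitals.
Pvalb: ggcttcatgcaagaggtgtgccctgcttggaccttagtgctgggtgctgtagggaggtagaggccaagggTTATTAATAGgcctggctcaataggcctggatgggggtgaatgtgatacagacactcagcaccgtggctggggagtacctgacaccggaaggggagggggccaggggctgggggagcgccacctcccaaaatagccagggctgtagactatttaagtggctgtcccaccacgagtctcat
The window before its second listed start (chr15:78204238-78204487, minus strand) held none. A MEF2 site occurred in 2.92% of all windows. A match is a description of the letters only.

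Skeletal muscle genes were high in 1 library. Acta1 (chr8:123891769-123894751, minus strand), skeletal alpha-actin, stood at 79.7 CPM and 909 counts in MRL/+ replicate 1 of 16 weeks and at no more than 0.410 CPM elsewhere. Ckm (chr7:19404776-19422841, plus strand), muscle creatine kinase, stood at 72.4 CPM there and at no more than 0.292 CPM elsewhere. Tnnt3 (chr7:142498836-142516009, plus strand), fast troponin T, stood at 85.5 CPM there and at no more than 0.657 CPM elsewhere. That library held 96.5%, 98.7% and 96.3% of the summed level of the 3 genes, in that order. The other 2 MRL/+ libraries of 16 weeks held 2 and 2 counts of Acta1, 3 and 2 of Ckm and 3 and 0 of Tnnt3, within the range of the MRL/lpr libraries for Acta1 and Tnnt3. Ckm shares 1552 of its 2913 exon bases with the antisense gene A930016O22Rik, which had at most 5 counts in any library.

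Per length, Pvalb led in that library at 126 RPKM, followed by Tnnt3 at 54.0, Acta1 at 51.9 and Ckm at 24.9. The Ckm value divides by all 2913 exon bases. How reads in the 1552 bases shared with A930016O22Rik were counted is not given, so the place of Ckm in this order is uncertain. Of 26 other genes of the muscle list, 20 were over 3 times their median there with at least 10 counts. They included Mylpf, a fast myosin light chain, at 145 CPM against a median of 1.88, and Tnni2, fast troponin I, at 95.9 against 0.390, whereas Pygm, the glycogen phosphorylase that choroid plexus libraries held at a median of 67.2 CPM, had its maximum in another library. Their sum was 745 CPM against a median of 101, and 159 CPM at most elsewhere. Tnnc2, fast troponin C, had no count in any library. Of 16011 genes with at least 20 counts in some library, 24 stood at least 10-fold over their second highest library in this one, and 0 to 12 did in each of the other 17.

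The 250 bases before Acta1 (chr8:123894776-123895025, minus strand), shown because the 3 muscle genes were high together, held 1 CArG box, the site bound by serum response factor, beginning 73 bases before the start and marked in capitals.
Acta1: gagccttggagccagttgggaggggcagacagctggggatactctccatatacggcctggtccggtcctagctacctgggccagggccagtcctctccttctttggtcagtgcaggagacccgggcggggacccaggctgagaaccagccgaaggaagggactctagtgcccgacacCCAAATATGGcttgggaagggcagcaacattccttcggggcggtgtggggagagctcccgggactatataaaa
A CArG box occurred in 1.47% of the windows, and the Ckm window held none.

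**Figure D3:**
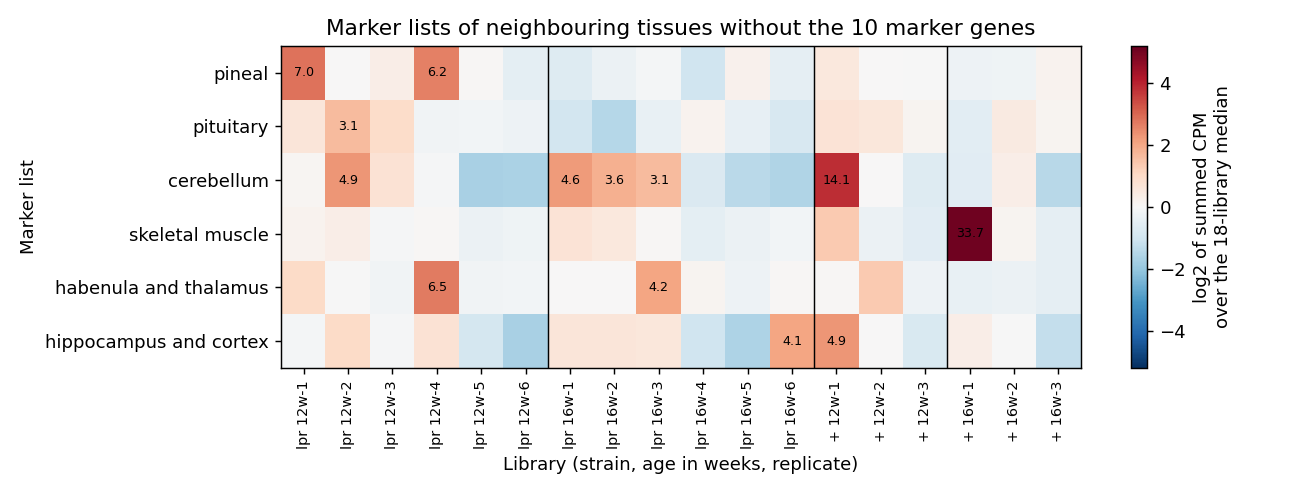
Colour gives the log2 of the summed CPM of each tissue list (vertical), without the 10 genes and without list genes whose median is above 10 CPM, over the median of 18 libraries (horizontal). Printed numbers are the ratios above 3, led by 33.7 for skeletal muscle in MRL/+ replicate 1 of 16 weeks and 14.1 for cerebellum in MRL/+ replicate 1 of 12 weeks.

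For each tissue the named genes most like its markers over the 18 libraries were listed from 14430 candidates, by Pearson r of log2 CPM, as a description. For the pineal genes they were Aipl1, Cabp5, Pde6c, Cplx4 and Rbp3, at r of 0.95 to 0.96, and 12 genes exceeded 0.9. For Gabra6 they were Cbln3 at 0.98, Ppp1r17, Car8, Grm4 and Aqp6 at 0.94, and 16 genes exceeded 0.9. For the muscle genes they were Lrrc30 at 0.99, Ckmt2, Myh4, Myot and Xirp2 at 0.97, and 19 exceeded 0.9. For Gh and Prl they were Oc90 at 0.75, Cd9, Atraid, Galnt11 and Prss23 at 0.67, and 0 genes exceeded 0.9. All these points share libraries and their depth.

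At 12 weeks, MRL/lpr against MRL/+, none of the 7 genes tested passed, beside 6.36% of all genes called by edgeR's quasi-likelihood test at a Benjamini-Hochberg adjusted p under 0.05 (1055 genes, 832 higher and 223 lower, with 3560 at an unadjusted p under 0.05). DESeq2 called 1 of the 7, Tph1, beside 10% of all genes. In edgeR, Tph1 had a log2 fold change of 6.20 (SE 2.20, adjusted p = 0.105), and Crx had 5.68 (SE 2.38, adjusted p = 0.173). In DESeq2 the Tph1 value was 6.26 with an adjusted p of 0.00437. Tph1 and Crx did not exceed 0.558 CPM in any MRL/+ library, so both passed the filter only through MRL/lpr libraries, where they were high. Without the filter, edgeR gave 6.195 (adjusted p = 0.27) for Tph1 and 5.675 (adjusted p = 0.383) for Crx. With the filter, the other edgeR folds ran from -1.37 for Gabra6 to 0.74 for Aanat, with Gh at 0.36, Prl at 0.66 and Pvalb at -0.76. Gh changed sign to -0.10 without MRL/+ replicate 2. The strains overlapped for all 7 genes, and the Tph1 mean of 9.84 ± 14.7 CPM (SD, n = 6) in MRL/lpr against 0.131 ± 0.226 CPM (SD, n = 3) in MRL/+ held 4 MRL/lpr libraries at or below 0.410 CPM.

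At 16 weeks, again 0 of 7 passed in edgeR, beside 11.1% of all genes called (1849 genes, 1410 higher and 439 lower, with 4773 at an unadjusted p under 0.05), and DESeq2 called 0. Gabra6 was at 2.37 (SE 1.54, adjusted p = 0.309), Tph1 at 1.79, Crx at 1.20 and Aanat at 0.70, while Gh was at -1.07, Pvalb at -0.81 and Prl at -0.27. Median log2 fold changes over all genes were -0.01 at 12 weeks and 0.03 at 16 weeks. All 7 genes overlapped between strains. Single libraries changed the sign of 3 of these values besides Pvalb: Crx was at -0.50 without MRL/lpr replicate 5, and without MRL/+ replicate 3 Gh was at 0.04 and Prl at 1.28. For Prl the sign changed in 3 of the 18 fits that each left out 1 library.

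Age and the interaction called none of the 7 in edgeR or DESeq2. In MRL/lpr, 16 against 12 weeks, Tph1 was at -2.77 and Crx at -2.66, with adjusted p of 0.708 and 0.763, beside 0.0361% of genes called (6 genes, with 1117 at an unadjusted p under 0.05). In MRL/+, where Gabra6 was at -2.70 with an adjusted p of 0.444, 0% of genes were called by edgeR, 2173 had an unadjusted p under 0.05, and DESeq2 called 10. The strain by age interaction had 0% called by edgeR and 0 by DESeq2, with 2286 at an unadjusted p under 0.05. These comparisons share libraries with those between strains.

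The direction of several of these values changed when libraries that stood apart for a tissue were left out. A library was named for a tissue where the sum of that tissue's other list genes, without the 10 genes, exceeded 3 times the median. This named MRL/lpr replicates 1 and 4 of 12 weeks for pineal gland, MRL/+ replicate 1 of 12 weeks for cerebellum and MRL/+ replicate 1 of 16 weeks for skeletal muscle. The lists were chosen with earlier results known. Within their groups, these libraries also held the highest levels of the genes given for them below. The changes therefore follow in part from that choice and are a description only. Without the pineal libraries, the 12-week Tph1 value was 1.496 (adjusted p = 0.718) and the Crx value 0.22 (adjusted p = 0.976), and in MRL/lpr 16 against 12 weeks the pair turned to 1.97 and 2.82. Without the cerebellar library, Gabra6 at 12 weeks went from -1.37 to 1.39 and Pvalb from -0.76 to 1.38, and Gabra6 with age in MRL/+ went from -2.70 to 0.05. Without the muscle library, Pvalb at 16 weeks went from -0.81 to 2.04. None of these values passed the threshold with or without the libraries, beside 3.93% of genes called at 12 weeks without the pineal libraries, 1.58% without the cerebellar library and 4.67% at 16 weeks without the muscle library.

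Leaving out such a library also changed how many genes were called over the whole table. At 12 weeks edgeR called 652 genes without the 2 pineal libraries and 263 without MRL/+ replicate 1, and 34 without all 4 named libraries. Leaving out MRL/+ replicate 2 or 3 of 12 weeks instead left 404 and 326, so a lower count followed the loss of any of the 3 control libraries. At 16 weeks 775 genes were called without MRL/+ replicate 1, 880 without replicate 2 and 653 without replicate 3. The part of tissue RNA in these totals, apart from the smaller group, was not tested.

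**Figure D4:**
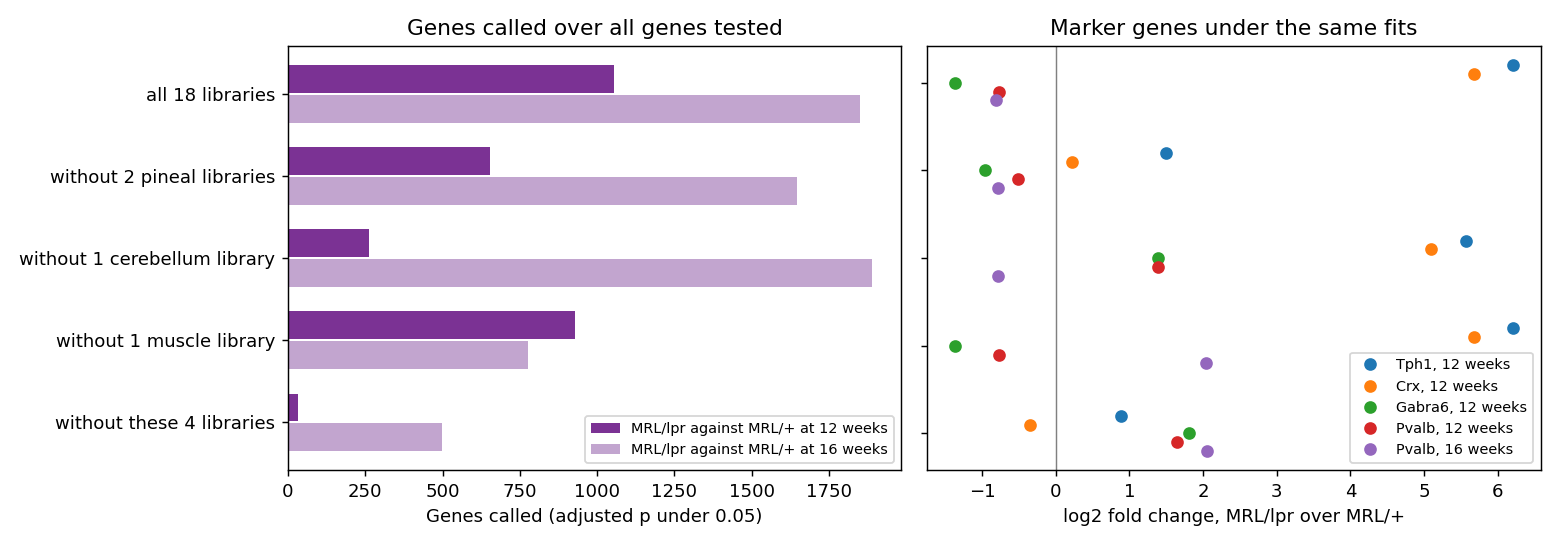
Left, number of genes called (adjusted p under 0.05) between strains at each age with all 18 libraries and without the named libraries. Right, log2 fold change of MRL/lpr over MRL/+ for Tph1, Crx, Gabra6 and Pvalb in the same fits, drawn without error bars, where Gabra6 and Pvalb at 12 weeks cross 0 without the cerebellar library. The libraries named for a tissue held the highest levels of its marker genes in their groups.

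The muscle genes show the same dependence as calls. Without the filter, which brought 31917 genes into the test, all 3 were called lower in MRL/lpr at 16 weeks, beside 0.536% of genes called lower. Their edgeR values were -7.03 for Acta1 (SE 1.37, adjusted p = 0.00978), -9.41 for Ckm (SE 1.58, adjusted p = 0.00484) and -6.80 for Tnnt3 (SE 1.45, adjusted p = 0.0149). Fitted folds of genes with so few counts depend on the prior count. Without MRL/+ replicate 1 of 16 weeks, an alternative chosen after the data were seen, they were 0.14 (adjusted p = 1), -2.71 (adjusted p = 0.268) and 0.81 (adjusted p = 0.772), and 0 of 3 were called, beside 0.0877% of genes called lower.

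With the filter, 15 other muscle genes were tested at 16 weeks, and edgeR called 8 of them lower in MRL/lpr and 0 higher, beside 2.64% of all genes called lower. Their median log2 fold change was -1.53, against 0.03 over all genes. They included Tnni2 at -5.76 (SE 1.13, adjusted p = 0.00394), Mylpf at -4.81 (SE 0.87, adjusted p = 0.00276), Mb, the oxygen carrier myoglobin, at -4.93 (SE 1.22, adjusted p = 0.0154), and Actn3, alpha-actinin of fast fibres, at -4.50 (SE 0.98, adjusted p = 0.00757). Casq1, Mybpc2, Pygm and Myl2 were the other 4. MRL/+ replicate 1 was itself named from the sum of the muscle list genes. A loss of their calls without it therefore follows in part from that choice and is a description only. Without MRL/+ replicate 1 the median was 0.59, and 1 gene was called lower, beside 0.572% of all genes. This was Myl2, the slow and cardiac light chain, at -2.56 (SE 0.43, adjusted p = 0.0109), whose 3 control libraries held 16, 27 and 24 counts and whose MRL/lpr libraries of 16 weeks held 2 to 7. Leaving out MRL/+ replicate 2 or 3 in its place left 8 muscle genes called lower each time.

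**Figure D5:**
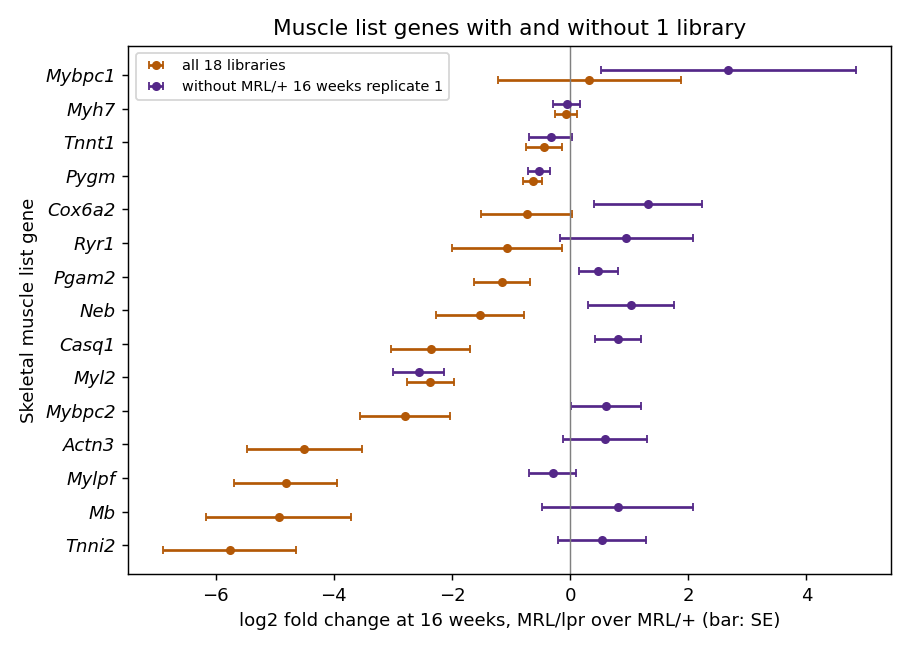
log2 fold change of MRL/lpr over MRL/+ at 16 weeks with SE bars for the 15 tested genes of the skeletal muscle list (vertical), with all 18 libraries and without MRL/+ replicate 1 of 16 weeks. Tnni2, Mb, Mylpf and Actn3 move from between -5.76 and -4.50 to between -0.29 and 0.80, and Myl2 stays near -2.5. The library left out was named from the sum of the muscle list genes.

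The pineal and cerebellar lists had 1 call between strains. The 8 other pineal genes tested at 12 weeks had a median log2 fold change of 1.52 with 0 called, beside 6.36% of all genes, and the median was 0.14 without the 2 pineal libraries. At 16 weeks Rd3, a photoreceptor protein, was called lower in MRL/lpr at -0.84 (SE 0.25, adjusted p = 0.0358). This was 1 of 8, beside 2.64% of all genes called lower and 11.1% called in either direction. The 14 other cerebellar genes had medians of -1.57 at 12 weeks and 1.42 at 16 weeks. At either age 0 of 14 were called, beside 6.36% and 11.1% of all genes in either direction. Their 12-week median became 1.03 without MRL/+ replicate 1. The pineal and cerebellar list genes had named the libraries left out here, so these shifts of the medians follow in part from that choice. Of the 12 choroid plexus epithelium genes, Htr2c, Igf2, Prlr and Kcne2 were called lower in MRL/lpr at 16 weeks, beside 2.64% of all genes. Without MRL/+ replicate 1, 1 of the 12, Igf2, was called lower, beside 0.572% of all genes, where the number of genes called lower fell from 439 to 95 over the whole table. Without replicate 2 it was again 1, and without replicate 3 it was 0.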

How the data were processed

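RNA from choroid plexus was sequenced with a kit that does not mark strand, per the labels' protocols. The deposited values are raw counts per gene, and the submitters' processing notes name STAR 2.5.3a, featureCounts 1.26.0, DESeq2 1.16.1 and the build GRCm38. For the annotation release, the strand setting and multi-mapping reads, the choice is not given in the sources used here. Counts were tested with edgeR 4.0.16 (R 4.3.3, limma 3.58.1): filterByExpr, TMM scaling, 1 mean per group over all 18 libraries, quasi-likelihood F tests, and Benjamini-Hochberg adjustment over all 16598 genes at 0.05. The SE is the log2 fold change divided by the root of F. CPM used TMM-scaled sums over the tested genes. DESeq2 1.42.0, other scalings, no filter, a replicate block, tissue sums as covariates and leaving out libraries were alternatives, and the code was tested on simulated data. Libraries held 11164284 to 14602253 counts.

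Genes named besides the 10 markers were, by rule, the 3 others of each tissue list with the highest CPM in any library and the 5 others with the highest r to the mean log2 CPM (prior count 2) of Tph1, Aanat and Crx, of Gh and Prl, of Gabra6 alone, or of Acta1, Ckm and Tnnt3. Genes called in a list, and those named for what they are known to mark, were named after their values were seen. The 10 genes and the lists were chosen with earlier results of these data known.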

Additional observations from a re-analysis of the deposited data

Results flagged for a closer look

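In groups of 6 libraries, 32 sets of values were examined for a highest or lowest library far from the others, and 9 stood apart. Chance marks about 1 in 20 groups under this criterion, but these sets were chosen with their unevenness known and share libraries, so the number is a description and is not set against that share. In MRL/lpr at 16 weeks, replicate 5 stood above the next library for 3 genes. Its Tph1 level was 6.71 CPM against 1.15, its Crx level 2.27 against 0.492, and its Gh level 10.1 against 2.58. In MRL/lpr at 12 weeks, replicate 2 stood apart for cerebellar genes. Gabra6 was at 33.6 CPM there against 7.09 in the next library, Pvalb was at 46.0 against 10.2, and the summed level of low cerebellar genes was 143 against 49.97 CPM.

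Sums of other brain regions, again over list genes with a median of at most 10 CPM, stood apart in 3 MRL/lpr libraries. Habenula and thalamus genes summed to 175 CPM in MRL/lpr replicate 4 of 12 weeks, against 53.0 in the next library, and to 111 CPM in MRL/lpr replicate 3 of 16 weeks, against 29.6. Hippocampus and cortex genes summed to 60.4 CPM in MRL/lpr replicate 6 of 16 weeks, against 22.9. Groups of 3 MRL/+ libraries were not examined this way, among them MRL/+ replicate 1 of 12 weeks, whose hippocampus and cortex sum was 71.6 CPM.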

How the results depend on the processing

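For the 17 log2 fold changes printed for single genes, 495 of 544 refits kept the direction and the side of the threshold, 48 changed sign, and 1, Tph1 at 12 weeks in DESeq2, became a call. The other 18 fold changes of the 10 genes changed sign in 51 of 576 refits with 0 called. Where a value moved, the cause was not tested. With few counts, and 3 libraries in each MRL/+ group, small changes were not detectable. DESeq2 called 1665 genes and 1 of the 7 genes at 12 weeks, 84 genes with age in MRL/lpr and 10 in MRL/+. Without the filter, 3 of the 10 genes were called at 16 weeks. At 5 times the median of the sum over all other list genes, 0 libraries were named for pineal gland and 0 for cerebellum, and over low list genes only 2 and 1 were. The sum over all other pituitary genes named no library at 3 times the median, so no library was left out by that sum.

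Correlations of same-numbered samples ran from -0.619 to 0.45. They were not set beside those of differently numbered samples, so they cannot decide whether the replicate numbers pair the samples. With the replicate number as a block, 1092 genes were called at 12 weeks, 1424 at 16 weeks and 1 with age in MRL/lpr. Gabra6 was then at 0.44 and Pvalb at 1.08 at 12 weeks, and Pvalb was at 1.32 at 16 weeks.

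With the 4 tissue sums as covariates, 8 genes were called at 16 weeks and 0 with age in MRL/lpr. At 12 weeks Aanat was at -0.11, Crx at -2.69, Gh at -0.74, Prl at -0.27, Gabra6 at 1.76 and Pvalb at 1.80, and at 16 weeks Pvalb was at 3.09. With age, Tph1 was at 1.73 and Crx at 2.95 in MRL/lpr and Gabra6 at 1.10 in MRL/+. Without the pineal libraries, 652 genes were called at 12 weeks and 0 with age in MRL/lpr, where Tph1 was at 1.97 and Crx at 2.82. Without the cerebellar library, 263 were called at 12 weeks, Gabra6 was at 1.39, Pvalb at 1.38, and Gabra6 with age in MRL/+ at 0.049. Without the muscle library, 775 were called at 16 weeks and Pvalb was at 2.04. Without all 4, 34, 498 and 0 genes were called at 12 weeks, at 16 weeks and with age in MRL/lpr. Crx was then at -0.35, Gabra6 at 1.81 and Pvalb at 1.64 at 12 weeks, and Pvalb at 2.06 at 16 weeks. With age, Tph1 was at 1.97, Crx at 2.82 and, in MRL/+, Gabra6 at 0.13.

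Some alternatives were chosen after seeing the data, with libraries named from low list genes only. Without the 5 cerebellar libraries, 109, 325 and 1 genes were called at 12 weeks, at 16 weeks and with age in MRL/lpr. Gh was at -0.069 and Pvalb at 0.20 at 12 weeks, Prl at 0.69 and Gabra6 at -1.19 at 16 weeks, and Gabra6 with age in MRL/+ at 0.042. Without the libraries of all 4 tissues, 23, 21 and 0 were called. Prl was at 0.29, Gabra6 at -1.25 and Pvalb at 0.72 at 16 weeks, and with age Tph1 was at 2.74, Crx at 3.35 and Gabra6 in MRL/+ at 0.11. Without MRL/lpr replicate 2 of 12 weeks, named for the pituitary by low list genes, 1 gene was called with age in MRL/lpr. With neither the filter nor MRL/+ replicate 1 of 16 weeks, 644, 342 and 1 were called, and Pvalb at 16 weeks was at 2.05.

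Leaving out each library in turn gave 263 to 1477 genes at 12 weeks, 653 to 2600 at 16 weeks and 1 to 9 with age in MRL/lpr, and 0 of the 7 genes in every such fit. At 12 weeks fold changes ran from 5.44 to 9.996 for Tph1, 4.94 to 8.29 for Crx, -0.10 to 1.63 for Gh, -2.88 to 1.39 for Gabra6 and -1.91 to 1.38 for Pvalb. At 16 weeks they ran from 0.07 to 2.10 for Tph1, -0.50 to 5.63 for Crx, -2.77 to 0.04 for Gh, -1.59 to 1.28 for Prl and -1.38 to 2.04 for Pvalb. Gabra6 with age in MRL/+ ran from -3.33 to 0.049.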
